A study of Mus musculus with 2 samples.

Results

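The 10 genes described here encode the Hes, Hey and Id repressors: Hes1, Hes3, Hes5, Hes6, Hey1, Hey2, Heyl, Id1, Id2 and Id3. Hes and Hey proteins are basic helix-loop-helix (bHLH) factors, and several of their genes are direct targets of the Notch pathway through the DNA-binding protein Rbpj. Hes proteins recruit Groucho/Tle corepressors. Id proteins have a helix-loop-helix but no basic region, so they bind E proteins and keep them from DNA, and they are well-known targets of BMP signalling. In the neural tube both groups hold back proneural bHLH factors and so keep progenitors from differentiating. Hes6 is the exception of the group, since it antagonises Hes1 and favours differentiation. What was measured is chromatin accessibility: in ATAC-seq, Tn5 cuts and tags the DNA that is open to it. An interval of the series' consensus set was assigned to the protein-coding gene with the nearest transcription start site (TSS), and 136 of 119502 intervals belonged to these 10 genes. The assignment is by distance alone and names no target of a distal interval.

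The cells were mouse ES cells of the Olig2-mKate2 reporter line, in which the red fluorescent protein mKate2 reports Olig2, the factor that defines motor neuron progenitors (pMN). They had been grown on feeder fibroblasts, then differentiated in bFGF and LGK, next in bFGF, CHIR99021, SB-431542 and the BMP receptor inhibitor DMH1, and then in 100 nM retinoic acid and 100 nM SAG, a Shh pathway agonist, up to day 5. Live cells sorted for mKate2 gave 1 group of 2 replicate libraries of 50000 cells each, so no conditions could be compared. The gate read the reporter alone, so motor neurons just born from pMN, or Olig2-positive cells that had turned on Nkx2-2, were not sorted away. In such a sorted pool, fewer open cells and less opening per cell cannot be told apart.

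The libraries held 31876165 and 31672240 counts in intervals. Nothing in the labels says whether they came from separate differentiations, so their spread may be technical. All values are counts divided by the library's size factor, and a density is such a normalised count per kb of interval. The labelled identity could be checked at promoters: all 5 pMN and neural progenitor markers (Olig2, Nkx6-1, Pax6, Sox2, Sox1) had an interval over their TSS. By gene record their densities were, in that order, 946, 1452, 187, 862 and 1498, and Pax6 had 613 over every transcript start. Of the pluripotency markers, Pou5f1 and Nanog had none and Zfp42 had one with a density of 237. Of genes of unrelated tissues, the liver gene Alb had none and the muscle gene Myod1 had one with a density of 172. Of the fibroblast markers, Col1a1 had none and Col1a2, Twist1 and Twist2 had densities of 123, 459 and 291 at the TSS, and their part in the values below was not tested. Motor neuron markers had one in 3 of 4 genes (Isl1 highest at 1087, Chat none). Over every transcript start, p3 and floor plate markers had one in 2 of 3 (Nkx2-2 at 879, Foxa2 at 584, Shh none). The neuromesodermal T and Cdx2 both had one, at 204 and 294. Since 61.5% of all protein-coding genes have such an interval by gene record and 66.7% by transcript starts, its presence alone says little of identity, and shares such as 3 of 4 lie close to that background.

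Sequence is given first where it bears on the binding sites named below. RefSeq promoter windows (GRCm38.p6, 250 bases before to 50 after a start, gene strand) were at hand for 5 of the 10 genes. Capitals mark 3 kinds of word on either strand: the Rbpj motif GTGGGAA, the class C site CACGNG that Hes and Hey proteins bind, and the N-box CACNAG. The class C search also takes up the E-box CACGTG. Hes5 and Hey2 are shown because each window held 2 Rbpj motifs.

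Hes5, chr4:154960673-154960972, plus strand: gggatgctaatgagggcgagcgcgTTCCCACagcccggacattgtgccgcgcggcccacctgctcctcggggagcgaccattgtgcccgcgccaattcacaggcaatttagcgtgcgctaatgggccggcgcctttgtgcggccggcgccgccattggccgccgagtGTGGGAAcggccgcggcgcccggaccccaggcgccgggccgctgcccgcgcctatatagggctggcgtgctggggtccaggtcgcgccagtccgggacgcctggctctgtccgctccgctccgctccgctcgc
Hey2, chr10:30842734-30843033, minus strand: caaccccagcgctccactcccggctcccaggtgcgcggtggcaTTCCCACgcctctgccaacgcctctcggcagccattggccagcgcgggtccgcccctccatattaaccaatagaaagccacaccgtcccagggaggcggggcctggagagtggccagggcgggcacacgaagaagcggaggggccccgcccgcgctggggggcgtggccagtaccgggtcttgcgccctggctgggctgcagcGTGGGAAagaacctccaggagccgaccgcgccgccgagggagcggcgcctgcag
Hes6, chr1:91413989-91414288, minus strand: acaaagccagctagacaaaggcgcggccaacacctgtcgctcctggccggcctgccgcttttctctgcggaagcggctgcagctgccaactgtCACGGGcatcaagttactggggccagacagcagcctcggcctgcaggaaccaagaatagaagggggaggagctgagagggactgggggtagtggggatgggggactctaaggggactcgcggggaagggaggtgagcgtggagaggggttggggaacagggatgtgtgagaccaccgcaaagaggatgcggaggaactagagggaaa
Hes6, second start, chr1:91413173-91413472, minus strand: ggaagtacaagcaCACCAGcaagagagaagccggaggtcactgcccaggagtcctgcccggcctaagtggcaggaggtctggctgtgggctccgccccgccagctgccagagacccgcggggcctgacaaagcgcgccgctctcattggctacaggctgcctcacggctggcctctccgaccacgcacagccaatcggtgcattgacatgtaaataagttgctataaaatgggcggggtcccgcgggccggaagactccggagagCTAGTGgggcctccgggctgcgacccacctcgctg
Id2, chr12:25096043-25096342, minus strand: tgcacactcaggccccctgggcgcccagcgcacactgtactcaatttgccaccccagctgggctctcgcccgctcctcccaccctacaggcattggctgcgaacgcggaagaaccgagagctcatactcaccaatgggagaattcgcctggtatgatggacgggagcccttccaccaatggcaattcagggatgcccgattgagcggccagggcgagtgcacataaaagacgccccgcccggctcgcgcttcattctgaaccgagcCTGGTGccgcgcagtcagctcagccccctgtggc
Id3, chr4:136143572-136143871, plus strand: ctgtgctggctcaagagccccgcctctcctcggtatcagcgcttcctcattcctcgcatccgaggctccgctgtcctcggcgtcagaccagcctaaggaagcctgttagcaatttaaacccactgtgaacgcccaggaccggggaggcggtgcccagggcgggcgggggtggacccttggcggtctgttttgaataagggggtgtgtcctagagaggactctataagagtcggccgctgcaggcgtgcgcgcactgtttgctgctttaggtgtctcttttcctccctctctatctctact

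In Hes5 the Rbpj motifs began 226 and 83 bases before the RefSeq start, the first as TTCCCAC and the second as GTGGGAA. In Hey2 they began 207 and 4 bases before it, in the same pair of orientations. At least 1 such motif was present in 6.38% of all 32851 promoter windows, and 2 or more in 0.256%. The windows of Hes6, Id2 and Id3 held none. A head-to-head pair with 15 to 17 bases between the motifs was found in 0 of the 32851 windows, those of Hes5 and Hey2 included, and the letters searched allow no mismatch. N-boxes stood in the second Hes6 window and in Id2 (2 and 1), where 42.5% of all windows held at least 1. A class C site was found only in the first Hes6 window among the 6 (all windows: 27.5%). The SMAD site GGCGCC, a word that BMP-responsive SMADs can bind, was counted 4 times in Hes5 and once each in Hey2 and Id2, and 11.9% of all windows held it. The 300 bases of all 6 windows lay inside the TSS interval of their gene, so the accessibility values below cover these letters in full. The RefSeq and GENCODE starts coincided for Hes5 and the first Hes6 window, and lay 18 bases apart in Hey2, 325 in Id3 and 1048 in Id2, each time within the same interval.

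The second set comes from distal intervals, meaning intervals that overlap no TSS of a protein-coding gene record. An interval over another transcript start of a gene therefore counts as distal, here and below. It shows the central 300 bases, plus strand, of the densest intervals near Hes1, Hes3, Id2 and Id3, each among the most open distal elements of the series, and of a Hes5 interval with 2 Rbpj motifs.

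Hes3, upstream, chr4:152292430-152292729: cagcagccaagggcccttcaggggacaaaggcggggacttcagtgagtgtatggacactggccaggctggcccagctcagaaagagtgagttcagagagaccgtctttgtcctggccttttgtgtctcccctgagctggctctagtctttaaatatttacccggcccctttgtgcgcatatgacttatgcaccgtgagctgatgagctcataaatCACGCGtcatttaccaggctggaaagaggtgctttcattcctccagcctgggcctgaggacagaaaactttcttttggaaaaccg
Id2, upstream, chr12:25098918-25099217: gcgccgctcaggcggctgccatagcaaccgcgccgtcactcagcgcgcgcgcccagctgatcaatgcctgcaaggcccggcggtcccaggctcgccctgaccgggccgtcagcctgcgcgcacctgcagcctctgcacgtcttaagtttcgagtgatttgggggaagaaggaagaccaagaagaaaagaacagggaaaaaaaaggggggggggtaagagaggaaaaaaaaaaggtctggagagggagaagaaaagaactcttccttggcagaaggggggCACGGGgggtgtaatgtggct
Id3, upstream, chr4:136140478-136140777: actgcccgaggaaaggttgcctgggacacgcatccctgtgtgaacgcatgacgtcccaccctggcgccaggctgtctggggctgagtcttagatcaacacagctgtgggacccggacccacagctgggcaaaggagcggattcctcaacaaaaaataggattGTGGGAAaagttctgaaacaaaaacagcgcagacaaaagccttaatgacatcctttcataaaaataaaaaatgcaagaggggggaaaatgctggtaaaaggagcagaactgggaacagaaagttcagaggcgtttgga
Hes1, downstream, chr16:30129676-30129975: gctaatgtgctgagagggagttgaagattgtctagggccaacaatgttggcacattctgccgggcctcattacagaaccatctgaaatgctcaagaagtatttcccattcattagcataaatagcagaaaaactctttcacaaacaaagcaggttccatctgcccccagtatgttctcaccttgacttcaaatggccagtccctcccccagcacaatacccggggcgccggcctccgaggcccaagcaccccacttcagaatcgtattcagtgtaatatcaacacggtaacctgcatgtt
Hes5, upstream, chr4:154958314-154958613: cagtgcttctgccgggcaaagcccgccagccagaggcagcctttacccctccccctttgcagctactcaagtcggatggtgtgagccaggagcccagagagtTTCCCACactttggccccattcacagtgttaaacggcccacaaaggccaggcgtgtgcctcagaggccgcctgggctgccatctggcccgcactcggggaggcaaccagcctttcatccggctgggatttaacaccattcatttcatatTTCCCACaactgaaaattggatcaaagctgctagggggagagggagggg

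Promoters were examined first. Of the 10 genes, 9 had an interval over the TSS of the GENCODE gene record, against 61.5% of all 21938 protein-coding genes. The median promoter density of the 10 genes was 1184 ± 1.78 (SD, n = 2), with Hes3 counted as 0. It was 402 over all genes, and 853 over the 12218 TSS intervals of the series. The density was above that last value in 7 of the 10 genes. Only 2 libraries stand behind each SD, which is why some are far smaller than the counting error of the same interval.

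**Figure D1:**
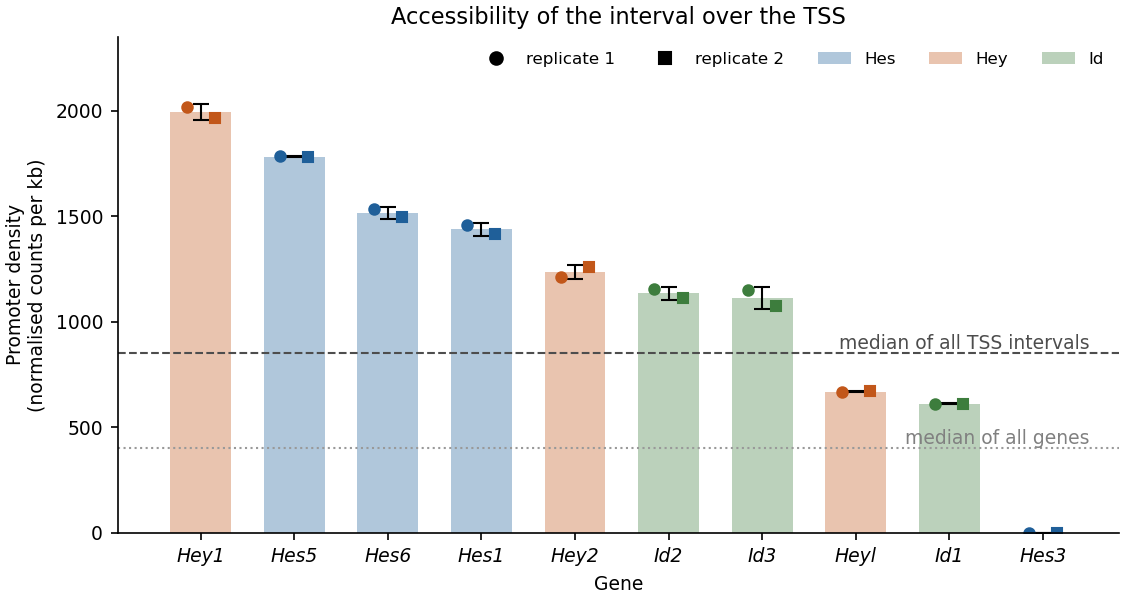
Promoter density of each gene in normalised counts per kb. Bars give the mean of the 2 replicates, error bars the SD, circles replicate 1 and squares replicate 2, with lines at the median of all TSS intervals (853) and of all protein-coding genes (402). The highest bar is Hey1 at 1992 and the lowest above 0 is Id1 at 611, and Hes3 has no interval over its TSS.

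Among the Hes genes, Hes5 had the densest interval directly over the TSS, although Hes3 passed it when the window was widened, as given below. Hes5 (ENSMUSG00000048001.7, chr4:154960465-154961841) is a Notch effector of neural progenitors. It had 2456 and 2452 counts in replicates 1 and 2, and a density of 1784 and 1780, at the 93.9th percentile of all genes. The replicates nearly coincided, the interval covered 63.4% of the gene, and it also spanned the start of the noncoding gene Gm20421. Unstranded transposition cannot assign the signal to one of the overlapping genes.

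Hes6 (ENSMUSG00000067071.8, chr1:91412527-91414603) followed with 3187 and 3105 counts and a density of 1535 and 1494. Its interval took in both RefSeq starts shown above. Hes1 (ENSMUSG00000022528.8, chr16:30063183-30065417), the oscillating repressor of neural progenitors, had 3263 and 3165 counts and a density of 1461 and 1416. Replicate 1 was the higher library for both genes, and the ranges of the 2 genes did not overlap. By counts per interval the order of these 3 turned over: Hes1 had a mean of 3214 normalised counts, Hes6 3146 and Hes5 2454, since the Hes5 interval was 1377 bp long and those of Hes1 and Hes6 2235 and 2077 bp.

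Hes3 (ENSMUSG00000028946.7, minus strand, TSS at chr4:152291662), a repressor of early neuroepithelium, was the 1 gene of the 10 without an interval over its TSS. It was not a closed locus. An interval 0.565 kb upstream (chr4:152292227-152292933, intergenic) held 1852 and 1906 counts, a density of 2621 and 2695. At 2658 ± 52.5 it was the densest of all 136 intervals, above 99.9% of distal intervals of the series. A second one lay 0.886 kb downstream in a Hes3 intron (chr4:152290246-152290776) with a density of 1373 and 1376. The TSS therefore fell between these 2 open intervals. RefSeq lists 9 Hes3 transcripts, 1 curated and 8 predicted, and none of their starts was inside an interval. The closest, a predicted start, stood 6 bases beyond the edge of the intronic interval. With the TSS window widened to 1 kb, the promoter density of Hes3 became 2107 ± 30.8 (96.7th percentile), and that of the other 9 genes stayed as it was. The distal label of both intervals thus depends on that window.

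The Hey promoters differed more among themselves than those of the other families with a TSS interval. Hey1 (ENSMUSG00000040289.8, chr3:8666618-8668117) had 3027 and 2949 counts and a density of 2019 and 1965, the highest of the 10 genes for an interval directly over the TSS, at the 95.9th percentile. With the window of 1 kb, Hes3 at 2107 stood above it. Hey2 (ENSMUSG00000019789.9, chr10:30842195-30844704), whose 2 Rbpj motifs are printed above, had 3038 and 3157 counts and a density of 1211 and 1257. Heyl (ENSMUSG00000032744.4, chr4:123233306-123234111) had 539 and 540 counts and a density of 669 and 670, below the median TSS interval. Hey1, Hey2 and Heyl all encode Notch-responsive repressors. Among the 9 TSS intervals, replicate 2 was the higher library only in Hey2 and, by 1 count, in Heyl. Over all TSS intervals of the series the median density was 869 in replicate 1 and 840 in replicate 2.

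The Id promoters had the lowest median of the 3 families, 1111 ± 52.8 (SD, n = 2), against 1234 ± 32.8 for Hey and 1476 ± 30.3 for Hes. Id2 (ENSMUSG00000020644.9, chr12:25095727-25097408) had 1941 and 1873 counts and a density of 1154 and 1113. Id3 (ENSMUSG00000007872.3, chr4:136143472-136144922) had 1666 and 1559 counts and a density of 1149 and 1074. These 2 were the only neighbours in the order of the 9 densities whose replicate ranges overlapped. Id1 (ENSMUSG00000042745.9, chr2:152734840-152738014) had 1944 and 1937 counts, as many as Id2, over an interval of 3175 bp that covered 100% of the gene, and its density of 613 and 610 was the lowest of the 9.

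The order of densities was Hey1, Hes5, Hes6, Hes1, Hey2, Id2, Id3, Heyl and Id1, with the largest step, 1.66-fold, between Id3 and Heyl. The smallest steps were 1.02-fold between Id2 and Id3 and 1.05-fold between Hes6 and Hes1. Each of the 9 genes held its rank in both replicates. Ranked by counts per interval in place of density, 0 of the 9 held it. The order thus depends on scaling by length.

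Base composition was read from the same intervals. The 9 TSS intervals had a median GC content of 63.0% (range 53.1% to 68.5%) and a median observed/expected CpG ratio of 0.698, against 60.2% and 0.698 over all TSS intervals. In 8 of the 9 the CpG ratio was above 0.6, as in 70.3% of all TSS intervals. Id1 was the exception at 0.531, and Hey1 the highest at 0.824.

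Distal intervals came next. Of the 127 distal intervals of the 10 genes, 80 were intergenic, 26 intronic, 14 over noncoding exons and 7 over coding exons or UTRs. These classes were not counted over the whole series, so the numbers describe the 10 genes only. A mean normalised count over 100 was reached by 56 of the 127 (44.1%), against 32.4% of all distal intervals. With the 9 TSS intervals included, 65 of 136 (47.8%) passed that limit, against 38.8% of all intervals. The median distal density was 145 ± 8.22 (SD, n = 2), and 125 over all distal intervals. The share over the limit was 54.9% for the Hes genes (28 of 51), 32.1% for the Hey genes (9 of 28) and 39.6% for the Id genes (19 of 48).

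**Figure D2:**
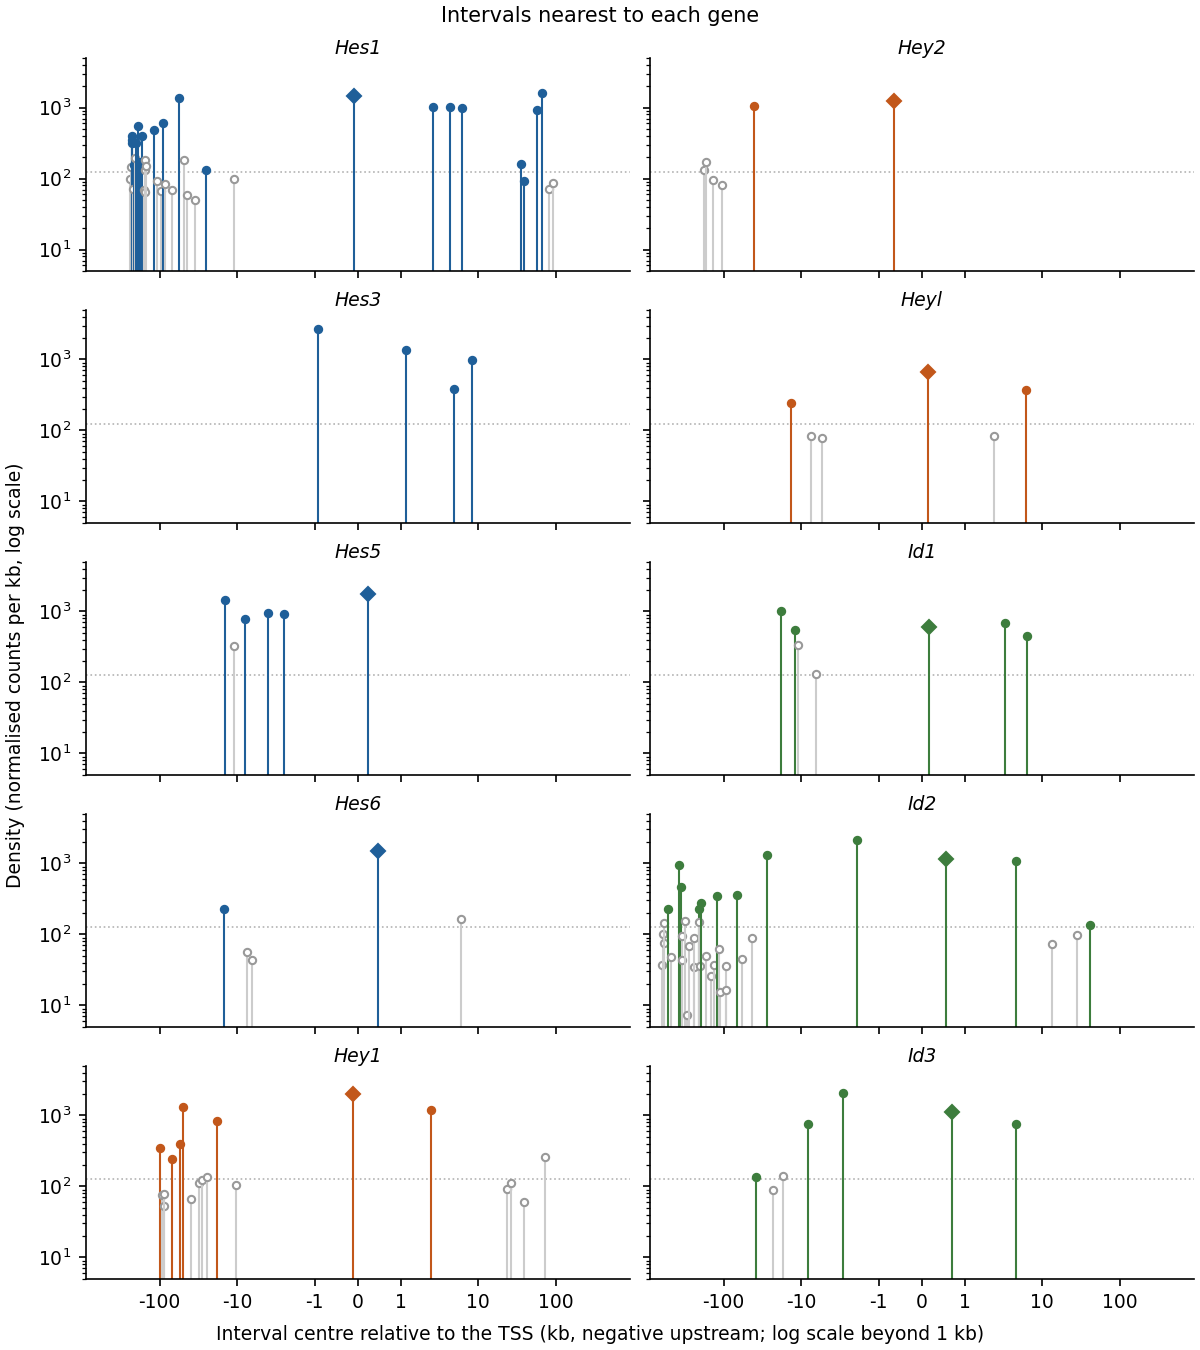
Density of every interval assigned to each gene (log scale, normalised counts per kb) against the distance of its centre from the TSS in kb (negative upstream, linear within 1 kb and logarithmic beyond). Diamonds are TSS intervals, filled circles distal intervals with a mean normalised count over 100, open grey circles those at or below it, and the dotted line the median of all distal intervals (125). Hes1 with 39 intervals and Id2 with 37 stand against 4 to 19 in the other 8 genes.

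The loci differed in how many intervals they held. Hes1 had 39 over a territory of 344 kb that was nearer to its TSS than to any other. Id2 had 37 over 720 kb, 32 of them upstream and the farthest at 613 kb. Hey1 had 19. The other 7 genes had between 4 and 7, where the median gene had 3. Hes1 also led in intervals over the limit with 20, more than in 99.6% of genes, followed by Id2 with 12 and Hey1 with 7. All 4 intervals of Hes3 passed it. Per 100 kb of territory, Hes3 with 34.8 and Hes5 with 33.7 were the densest in intervals, and Hey2 with 2.35 the sparsest, against a median gene of 6.04. Id2 with 5.14 also lay below that median, and the other genes lay above it. In intervals over the limit, Id2 had 1.67 per 100 kb, where the median gene had 2.38.

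At Hes1, the strongest distal interval was 64.8 kb downstream (chr16:30129197-30130454, intergenic). It had 2010 and 2066 counts and a density of 1598 and 1642, higher than the promoter in both replicates, with a ratio of 1.13 ± 0.0462. The next one upstream, at 54.9 kb (chr16:30008424-30009460), had a density of 1381 and 1349 and lay over the start of the noncoding gene 4632428C04Rik. Closer to the gene, 3 intervals at 2.24, 4.004 and 5.73 kb downstream had mean densities of 1027, 1023 and 996. The first of these lay in the Hes1 gene over coding sequence, the other 2 beyond its end. Farther upstream, out to 241 kb, the densities ran lower, up to 614 at 91.0 kb. Only 21.01% of the counts in the Hes1 intervals came from the TSS interval.

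At Id2, the interval 1.40 kb upstream (chr12:25098539-25099597, intergenic) had 2247 and 2245 counts and a density of 2123 and 2119. It exceeded the promoter 1.87 ± 0.0460-fold and 99.8% of distal intervals. A second, 27.1 kb upstream, had a density of 1273 and 1314, also above the promoter in both replicates. Another lay 378 kb upstream at 942 and 932, and 1 interval 4.42 kb downstream had 1115 and 1039, where the ranges of that interval and of the promoter overlapped. The TSS interval gave 20.0% of the counts of the locus, the lowest share of the 9 genes with a TSS interval, where the median gene had 78.3%.

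Id3 and Id1 showed the same order of distal and TSS interval. The interval 2.57 kb upstream of Id3 (chr4:136140331-136140924, intergenic) had 1242 counts in each replicate and a density of 2092 and 2090, or 1.88 ± 0.0884 times the promoter. Its printed centre holds 1 Rbpj motif. At Id1 the densest distal interval lay 17.8 kb upstream (chr2:152717718-152718428) with 690 and 771 counts and a density of 971 and 1084, or 1.68 ± 0.136 times the long Id1 promoter interval.

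**Figure D3:**
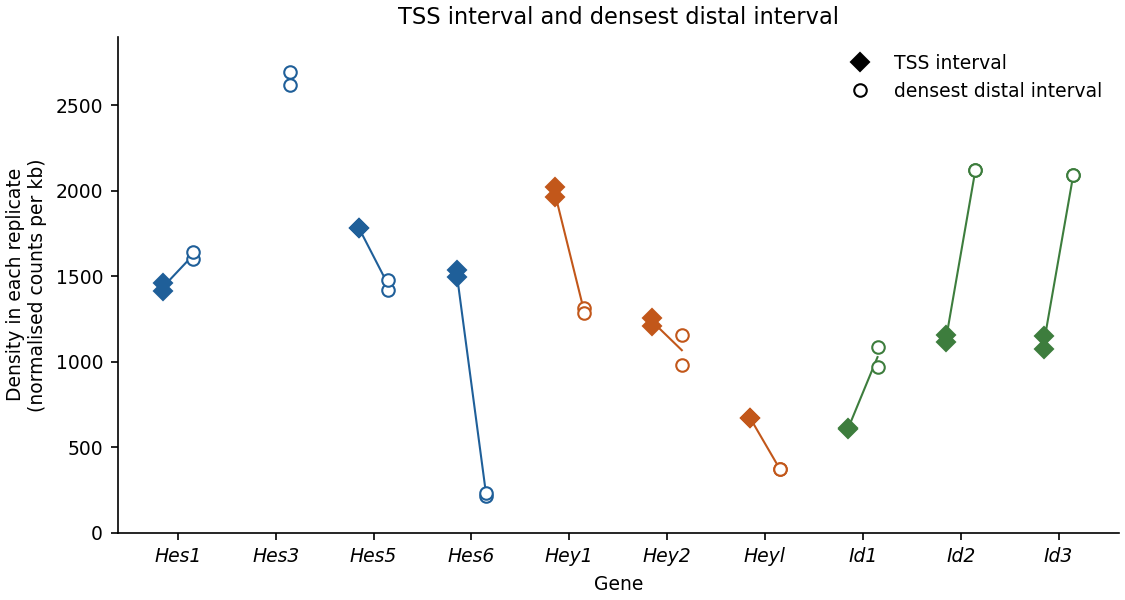
Density in normalised counts per kb of the TSS interval (diamonds) and of the densest distal interval with a mean normalised count over 100 (open circles) of each gene, 1 symbol per replicate, with lines joining the means. The line rises in Hes1, Id1, Id2 and Id3 and falls in Hes5, Hes6, Hey1, Hey2 and Heyl, and Hes3 has no TSS interval.

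In the remaining 5 genes the promoter was denser. Hes5 had all 5 distal intervals upstream, the densest at 14.1 kb (chr4:154946084-154946849) with 1089 and 1131 counts and a density of 1422 and 1476, or 0.813 ± 0.0227 of the promoter. Its interval at 2.10 kb, whose centre with 2 Rbpj motifs is printed above, had a density of 916 and 942. For Hey1 the densest lay 49.9 kb upstream (chr3:8717171-8718109) at 1314 and 1284, a ratio of 0.652 ± 0.00183. The Hey1 interval 2.30 kb downstream, over coding sequence of the gene, had 1151 and 1191. For Hey2 the densest was 40.3 kb upstream (chr10:30883124-30883907) at 981 and 1154, a ratio of 0.864 ± 0.0759. Its SD of 122 was the largest among the densest distal intervals of the 10 genes. It was the only distal interval of Hey2 over the count limit. Heyl had its densest in the gene, 5.72 kb downstream, at 375 and 374. Hes6 had 1 distal interval over the limit, in an intron of the clock gene Per2 14.6 kb upstream, at 214 and 235, or 0.149 ± 0.0127 of the promoter, and 94.9% of its counts came from the TSS interval.

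Across the 9 genes with both kinds of interval, the densest distal interval exceeded the TSS interval in 4 (Hes1, Id1, Id2 and Id3), and in the same 4 in each replicate. The share was 32.7% of the 7908 genes of the series that have both, and the count is read as a description only. It included all 3 Id genes and 1 of 6 Hes and Hey genes. By counts per interval, the distal interval led only at Id2.

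The Rbpj motif was also searched in the central 300 bases of distal intervals. It was present in 24 of the 101 that were 300 bases or longer (23.8%), against 7.10% of all 76413. The exact 95% binomial interval of 15.9% to 33.3% covers counting error only. It treats intervals of the same gene as independent, which they need not be. Of the intervals above 100 mean normalised counts, 17 of 55 held it (30.9%, against 7.11%). The genes with most were Hes1 (9 of 33), Hey1 (4 of 14) and Id2 (4 of 28), which also had the most intervals searched. By share, Hes5 (2 of 3) and Id3 (2 of 4) were higher. None of the 4 Hes3 intervals and neither of the 2 Hes6 intervals held it. Of the densest distal intervals of the 10 genes, those of Hes5, Hey1, Heyl and Id3 had 1, and those of Hes1, Hes3, Hes6, Hey2, Id1 and Id2 had 0. In the centres of the 9 TSS intervals it was in 3 (Hey1, Heyl and Id1), against 5.57% of all TSS intervals. The centre is not the promoter window, so Hes5 and Hey2 are not among these 3. A match is a description of letters and not a bound site.

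For the other words, a class C site was in 26.7% of the 101 distal centres against 17.03%, an N-box in 48.5% against 48.0%, and the SMAD word GGCGCC in 10.9% against 3.80%. The GC content of the distal intervals was 51.7% in the median against 48.6%, and the CpG ratio 0.250 against 0.211. The part of base composition in these shares was not tested.

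The replicates of the 136 intervals were compared with a two-sided exact binomial test on the pair of counts. At an adjusted p limit of 0.01, 0 of 136 intervals were called, as were 0% of all 119502 (6 with edgeR TMM factors), and the smallest adjusted p of the 136 was 0.219. At an unadjusted p under 0.05 there were 14 (10.3%), against 8.39% of all intervals, more than counting error alone would give. The largest difference among intervals over the count limit was at Hes1, 180 kb upstream (chr16:29881642-29884186), with 484 and 393 counts, a log2 ratio of -0.30 for replicate 2 over 1 and an adjusted p of 0.290 in the exact test. The 33 intervals higher in replicate 2 were about as many as those higher in replicate 1 among the 65 over the limit. The SD of the log2 ratio was 0.12 in those 65 and 0.14 in all intervals over the limit. The biological coefficient of variation of edgeR, which leaves out counting error, was 2.69% over the whole series. The libraries differed by more than sampling noise (mean chi-square per degree of freedom 1.37), so they were not treated as copies of 1 library. This does not show that they came from separate differentiations.

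**Figure D4:**
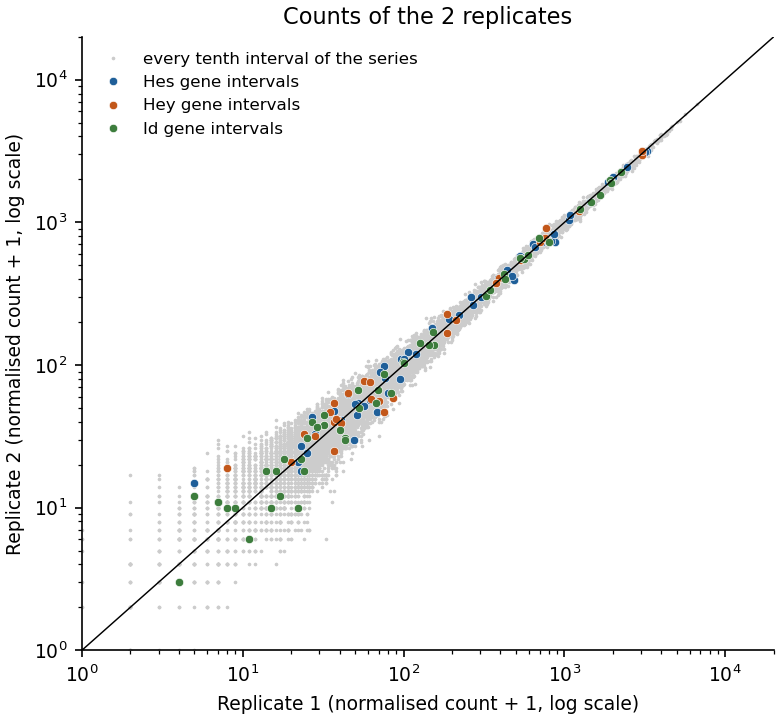
Normalised count plus 1 of each interval in replicate 2 against replicate 1, both axes logarithmic, for the 136 intervals by family and for 1 in 10 intervals of the series in grey, with the line of equality. The coloured points follow the line over the whole range and widen at low counts with the grey ones.

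Genes that act with these repressors are set beside them by promoter density. For some genes the TSS of the gene record misses the main promoter (Notch1, Rbpj, Pax6, Foxa2, Tle2 and Tcf4 among them), so these values are taken over every protein-coding transcript start, where the median of all genes was 487 and that of the 10 genes again 1184. Where a gene had several TSS intervals, their counts were divided by their summed length, which averages its starts. The 10 genes had at most 1 such interval each. All values come from the same 2 libraries and are read as levels only.

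**Figure D5:**
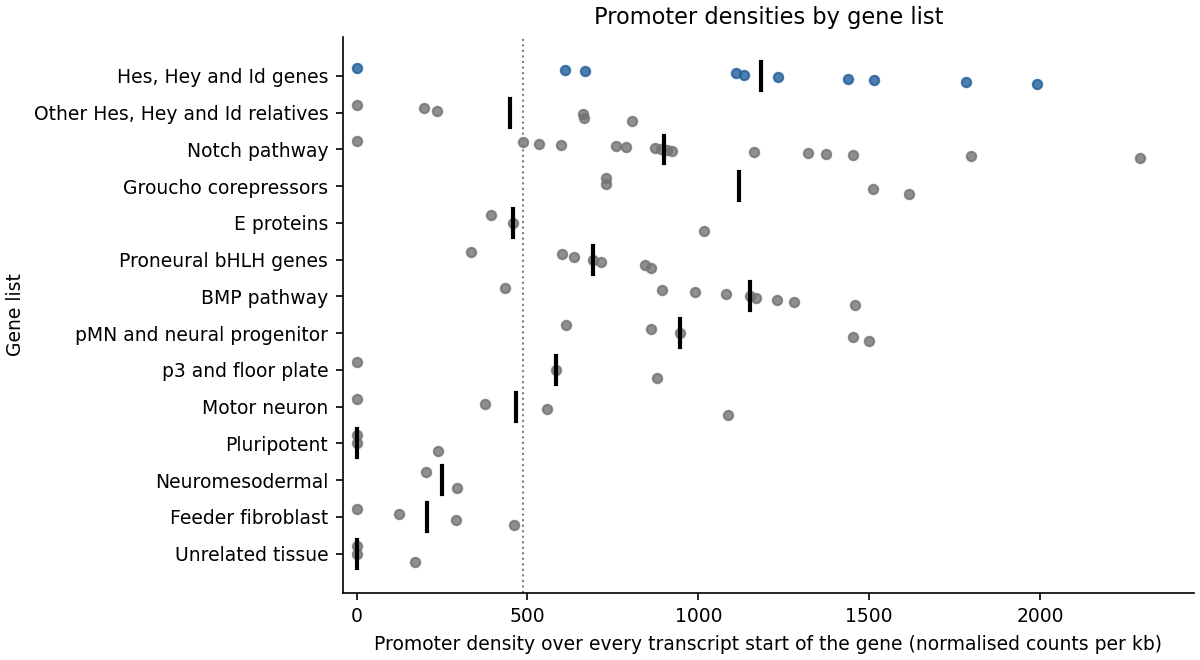
Promoter density over all protein-coding transcript starts (normalised counts per kb, mean of 2 replicates), 1 point per gene by list, with a bar at the median of each list and a dotted line at the median of all genes (487). The Hes, Hey and Id genes have a median of 1184, and the Notch pathway genes 901.

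Of the 16 Notch pathway genes (receptors, ligands, fringe glycosyltransferases, Rbpj and the Mastermind coactivators), 15 had a TSS interval and the median density was 901 ± 19.2. The highest was Lfng, which modifies Notch receptors, at 2294 ± 79.7, and Notch4 had none. Groucho corepressors, the partners of Hes proteins, had a median of 1121 ± 24.6 over 4 genes, from Tle2 at 729 ± 13.6 to Tle4 at 1618 ± 64.1. The E proteins, which Id proteins bind, had 459 ± 23.6 over 3 genes, with Tcf3 highest at 1017 ± 70.6 and Tcf4 lowest at 394 ± 2.41. By gene record Tcf12 had 586 in place of 459, and Tcf4 had no TSS interval. The 9 BMP pathway genes had 1151 ± 9.63, with the inhibitory Smad6 highest at 1458 ± 117 and Smad9 lowest at 435 ± 20.1. By gene record Smad7 was the highest at 1793 ± 36.2, where it had 1151 over every transcript start.

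The 7 proneural bHLH genes, which the Hes proteins repress, all had a TSS interval, with a median of 691 ± 2.05, from Neurog3 at 334 ± 21.4 to Neurog2 at 863 ± 8.32. With the gene record's TSS, the densest distal interval exceeded the promoter in 7 of 7 of them, beside 32.7% of genes in the series. By that TSS, an interval over another transcript start of a gene counts as distal. The shares of these lists and of the series were not recounted without such intervals. Notch1, for example, had 45.2 by gene record, 1162.5 over every transcript start and 1496 in its densest distal interval. Among genes of the other lists that had a TSS interval and a distal interval over the limit, the distal one was denser in 6 of 13 for the Notch pathway and 2 of 3 for Groucho. The share was 1 of 2 for the E proteins, 1 of 7 for the BMP pathway and 5 of 5 for the pMN markers. For the remaining markers it was 3 of 3 for fibroblast, 2 of 2 for neuromesodermal and 1 of 1 for pluripotency genes. It was 1 of 1 for p3 and floor plate and 1 of 3 for motor neuron markers. Of 6 relatives outside the 10 genes (Hes2, Hes7, Id4, Helt, Bhlhe40 and Bhlhe41), 5 had a TSS interval, the distal interval was the denser in 5 of 5, and the median was 450 ± 13.9. Id4 was the highest of them at 807 ± 41.0, above Id1 and below Id2 and Id3, and Hes7, the repressor of the somite clock, had none.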

How the data were processed

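ATAC-seq counts of 2 LIVE_ATAC libraries were used. The file that the authors deposited gives raw counts of fragments for 119502 consensus intervals (mm10). Per the file headers these came from featureCounts 2.0.1 on read pairs, with a fragment counted in every interval of which it covered at least 20% of its own length, so 1 fragment can enter several intervals. Per the study's methods, reads were aligned to mm10 and peaks called by MACS. The submitters' processing notes name DESeq2. The 3 columns of other samples were not used in any step, though those libraries helped to define the intervals. Libraries held 31876165 and 31672240 counts, with a median of 65 and 66 per interval. A count of 0 would allow up to 3 counts at the 95% level. Intervals and limits cover counting error only.

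Size factors of DESeq2 (1.42.0) scaled the counts, and length in kb gave densities. GENCODE M21 supplied genes and starts. Each interval went to the nearest protein-coding TSS of a gene record. Replicates were compared with the exact binomial test and Benjamini-Hochberg adjustment over all intervals. The biological coefficient of variation came from the common dispersion of edgeR (4.0.16). The test and this coefficient were both checked on simulated data. Sequence was read from RefSeq GRCm38.p6. Python 3.11.15 with numpy 2.4.6, pandas 2.3.3, scipy 1.17.1 and matplotlib 3.10.9, and R 4.3.3, were used. Named intervals were the TSS interval of each gene, its densest distal interval with a mean over 100 and the interval with the largest replicate difference. Other intervals given were picked with their values in view. The members, lists and tests were chosen with earlier results of these data known. Alternatives covered normalisation, TSS definition, length scaling, distance, filters and each replicate left out.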

Additional observations from a re-analysis of the deposited data

How the results depend on the processing

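With edgeR TMM factors or total counts in place of DESeq2 size factors, the promoter and distal values stayed within the replicate spread. The factors were 0.998 and 1.002 by TMM, 1.003 and 0.997 by total counts, and 0.9996 and 1.0004 by DESeq2. With factors so alike, means over both libraries could hardly move. In the exact binomial test 0 of 136 intervals were called, although TMM factors called 6 of all 119502. An unadjusted p under 0.05 in that test was reached by 15 of the 136 with TMM factors and 12 with total counts, against 14. With an interval counted within 1 kb of the TSS, the median promoter density of the 10 genes was 1336 and its median percentile 84.5, since Hes3 then gained a promoter value of 2107 and stood first in the order, above Hey1. By counts per interval the median percentile was 90.6 against 80.6, the number of genes at their rank of the density order was 0 against 9, and the distal interval led the promoter in 1 gene against 4. Within 100 kb, 88 of the 136 intervals remained. Leaving out a replicate gave a median promoter density of 1183 to 1185, a percentile of 80.1 to 81.2, 53 to 56 distal intervals over the limit and a median distal density of 141 to 153. The remaining alternatives, among them the transcript starts (134 intervals, 132 of them shared) and the window of 200 bases for the Rbpj motif (18.8%), moved no count over 1.5 times and no value beyond its error. The alternatives for the distal interval against the promoter and for the motif windows were chosen after seeing the data. No paired analysis was possible because the labels used here name a single group. With 2 libraries a spread has 1 degree of freedom, and low distal counts limit single intervals.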
